A study of Homo sapiens with 6 samples.

Results

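Keratins are the intermediate filament proteins of epithelial cells. The 10 keratin genes described here are *KRT8*, *KRT7*, *KRT80*, *KRT4* and *KRT5*, which encode type II keratins, and *KRT18*, *KRT19*, *KRT17*, *KRT20* and *KRT10*, which encode type I keratins. They are 10 of 54 intact keratin genes looked for and 10 of the 39739 gene rows deposited, taken by gene symbol without their pseudogenes. The members were selected on values of the same comparison, HGC27-FN1 3′-UTR cells against HGC27-control cells, so the differences in their levels between the groups are given as a description with no test.

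HGC27 is an established cell line from a human gastric cancer. The series holds RNA-seq of HGC27-FN1 3′-UTR cells, called overexpressing here, in 3 libraries. In them the 3′-UTR of *FN1*, the fibronectin gene, was overexpressed, and 3 libraries of HGC27-control cells served for comparison. The overexpressing cells were made by lentiviral infection followed by puromycin selection, so they are a selected population, and what vector the control cells carried is not given in the labels. Nothing in the labels says that the replicates came from separate cultures, so p-values measure only the spread between these libraries, which may be technical.

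Expression was deposited as RPKM, which scales the reads of each gene to a kilobase of merged exon and to 1000000 assigned reads. The libraries held from 16357085 to 37037532 assigned reads, and 3 reads corresponded to between 0.081 and 0.183 reads per 1000000, for counting error only. *FN1* itself had 0.777, 0.745 and 0.819 RPKM in the overexpressing replicates 1 to 3 and 0.543, 0.474 and 0.532 RPKM in the control replicates. The groups did not overlap, and *FN1* rose by 0.52 ± 0.11 on the log2 scale (estimate and standard error, adjusted p = 0.0292, limma). That call was lost without any 1 of the 6 libraries, where the adjusted p from limma was 0.0614 to 0.0982. The *FN1* value covers all merged exons of the gene, so it does not measure the level of the overexpressed 3′-UTR alone. Over the 23299 genes tested with limma, 5.62% were higher and 7.36% were lower in overexpressing cells at an adjusted p under 0.05. With voom on reads recovered from the RPKM values, 2043 of these genes were higher and 3065 lower. Counts at an unadjusted p, given for some lists below, have no share over all genes beside them. They are a description only. When the libraries were rescaled by the median ratio of reads, the split turned from 1310 higher and 1715 lower genes to 1696 higher and 1330 lower genes.

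Type I keratins are acidic and type II keratins are basic to neutral, and a filament needs 1 of each type, because the building block is a heterodimer of the 2 types. KRT8 and KRT18 are the first pair made in simple epithelia, such as the lining of the stomach, and KRT19, KRT7 and KRT20 are added in particular glandular epithelia. KRT5 belongs to basal cells of stratified epithelia, KRT4 to non-cornified stratified epithelia such as the esophagus, KRT17 to skin appendages and injured epidermis, and KRT10 to differentiating epidermis. *KRT18* lies with the type II genes in the cluster on chromosome 12, and the other type I genes described here lie on chromosome 17.

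The coding sequence at the end of the central rod is shown because the similarity of keratin genes bears on how reads are assigned to them. It is one of the most conserved stretches of intermediate filament proteins. In the main transcript of each gene in GENCODE release 29, the 30 bases start at the codon before a tyrosine and arginine pair. They were located in the translated sequence as isoleucine, then alanine, glutamine or serine, then threonine or serine, then tyrosine, arginine, any residue and leucine. In *KRT8* they encode residues 390 to 399 of 483, and in *KRT18* residues 379 to 388 of 430. Capitals mark the 13 positions at which all 10 members have the same base, and the members with the clearest differences between the groups follow, type II first:
KRT8: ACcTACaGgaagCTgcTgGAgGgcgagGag
KRT7: ACcTACcGcaagCTgcTgGAgGgcgagGag
KRT80: ACcTACaGgaagCTggTgGAgGgcgagGag
KRT4: ACcTACcGcaaaCTgcTgGAgGgcgagGag
KRT18: ACcTACcGccgcCTgcTgGAaGatggcGag
KRT19: ACcTACcGcagcCTgcTcGAgGgacagGaa
KRT17: ACcTACcGccgcCTgcTgGAgGgagagGat

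Type II members differed from each other at 1 to 5 of these 30 positions, over 10 pairs. Type I members differed from each other at 4 to 9 positions, and a type I and a type II member differed at 5 to 12 positions. The *KRT80* stretch was 96.7% identical to that of *KRT8* and the *KRT18* stretch 66.7% identical.

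Keratin mRNA was more abundant in overexpressing cells for 7 of the 10 members, in both types, and the groups overlapped for *KRT10*. *KRT20* and *KRT5* were at the limit of detection. For *KRT8*, *KRT18*, *KRT19*, *KRT7*, *KRT17*, *KRT80* and *KRT4*, all 3 overexpressing libraries lay above all 3 control libraries, and the log2 fold change was above 1. Over all genes tested, 14.3% had groups separated in this direction and 2.07% had a log2 fold change above 1. Nothing is read from this contrast, since the members were chosen on these values. Log2 fold changes are those of RPKM + 0.1, a scale that understates the change of genes with low RPKM. In bulk RNA, more RNA in every cell and a larger share of cells with keratin RNA cannot be told apart.

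**Figure D1:**
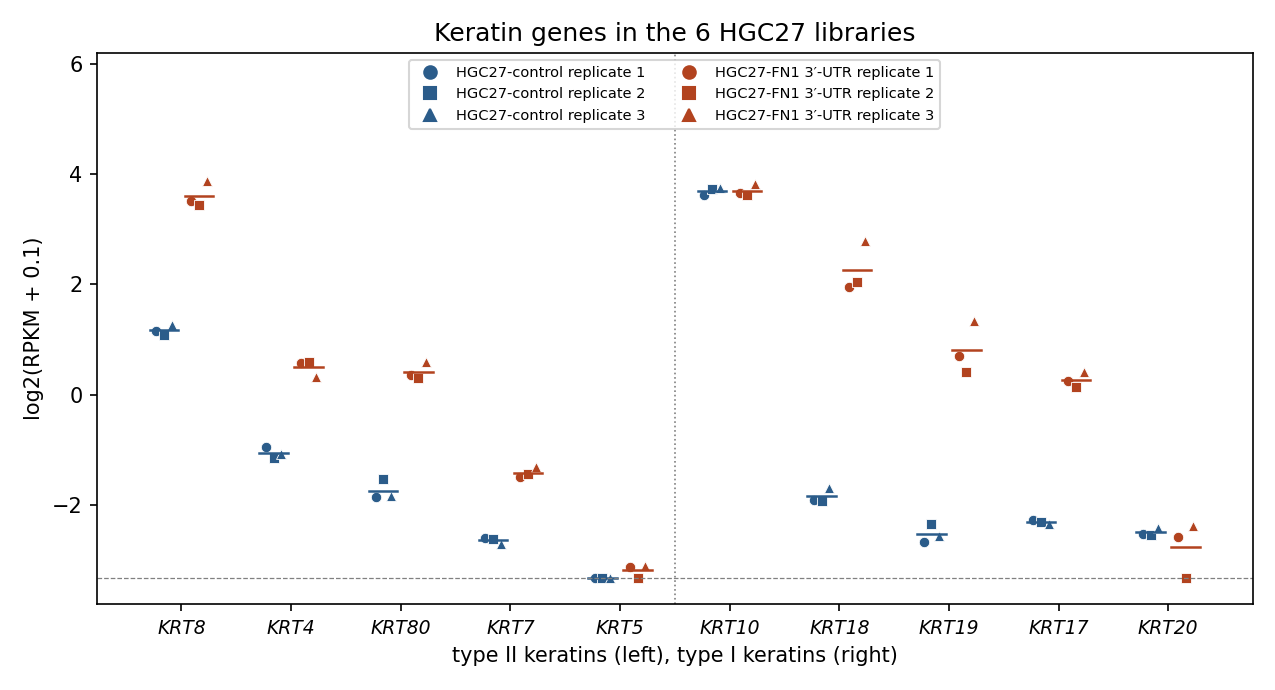
Level of each keratin gene as log2(RPKM + 0.1) in 6 libraries, with 1 point per library, lines at the group means and a dashed line at an RPKM of 0. In 7 of the 10 genes every overexpressing point lies above every control point, while the points of *KRT10* are mixed and those of *KRT5* lie at or near the dashed line.

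*KRT8*, the type II keratin of simple epithelia, is encoded on the minus strand of chromosome 12 from 52897187 to 52949954 (GRCh38). It had 11.3, 10.8 and 14.6 RPKM in overexpressing replicates 1 to 3 and 2.14, 2.02 and 2.29 RPKM in control replicates 1 to 3. The lowest overexpressing library was 4.71 times the highest control library, and replicate 3 stood above the other overexpressing libraries. The means were 12.2 ± 2.04 and 2.15 ± 0.134 RPKM (SD, n = 3 each), a 5.69-fold difference and a log2 fold change of 2.44 (standard error 0.118). These values rest on 6019 reads in the overexpressing libraries and 1342 in the control libraries, the deepest coverage of any risen member. Between the overexpressing libraries the coefficient of variation was 16.7%, where counting error alone would give 2.36%.

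*KRT18*, the type I partner of *KRT8*, is encoded on the plus strand of chromosome 12 from 52948871 to 52952901, next to *KRT8* and overlapping its 5′ end. It had 3.76, 4.03 and 6.82 RPKM in overexpressing replicates 1 to 3 and 0.167, 0.161 and 0.210 RPKM in the control replicates. The groups were far apart, with the lowest overexpressing library at 17.9 times the highest control library. Replicate 3 was again the highest overexpressing library, and the coefficient of variation there was 34.8%. Only 12, 16 and 25 reads lay behind the control values, against 1156 reads in the overexpressing libraries together. After scaling for depth, the reads differed 28.1-fold, with an exact 95% interval of 21.3 to 37.8 that covers counting error only.

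*KRT8* was above its partner in both groups, and by a smaller factor in overexpressing cells. Per kilobase of merged exons, *KRT8* was 12.8, 12.5 and 10.9 times *KRT18* in the control libraries and 3.02, 2.68 and 2.14 times *KRT18* in the overexpressing libraries. All ratios of one group lay apart from those of the other, and the mean ratio was 4.64 times as large in control cells. The merged exons of *KRT8* cover 6881 bases and its main transcript 2126 bases, where those of *KRT18* cover 3218 and 1562 bases. Per kilobase of the main transcript, *KRT8* was 17.2 to 20.1 times *KRT18* in control cells and 3.36 to 4.74 times *KRT18* in overexpressing cells, so the direction was the same with either length.

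*KRT19*, the smallest keratin and a type I partner without most of the tail domain, lies on chromosome 17 from 41523617 to 41528308. It had 1.52, 1.23 and 2.42 RPKM in overexpressing replicates 1 to 3 and 0.0575, 0.0972 and 0.0693 RPKM in the control replicates. The 16 reads in the control libraries together make their level imprecise, and the depth-scaled difference of 23.6-fold had an exact 95% counting interval of 14.3 to 41.8. The order of the overexpressing libraries was not that of *KRT18*, as replicate 2 was the lowest, but replicate 3 was the highest for both genes.

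*KRT17*, a type I keratin of skin appendages, had 1.08, 1.0 and 1.23 RPKM in overexpressing replicates 1 to 3 and 0.106, 0.102 and 0.0958 RPKM in the control replicates. The groups did not overlap, but only 6, 8 and 9 reads lay behind the control values, where counting error alone would give a coefficient of variation of 36.6%. The depth-scaled reads differed 11.1-fold, with an exact 95% counting interval of 7.19 to 17.9. It lies on chromosome 17 from 41619437 to 41624842.

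*KRT80*, a type II keratin described at cell margins in many epithelia, had 1.18, 1.13 and 1.41 RPKM in overexpressing replicates 1 to 3 and 0.175, 0.246 and 0.180 RPKM in the control replicates. The means were 6.19-fold apart, and the 383 reads in the overexpressing libraries were more than those of *KRT19*, whose RPKM was higher. *KRT4*, the type II keratin of the esophagus, had 1.38, 1.41 and 1.15 RPKM in overexpressing replicates 1 to 3 and 0.419, 0.353 and 0.375 RPKM in the control replicates. Among the 7 risen members it had the smallest ratio of means, 3.44-fold. It was also the exception in the order of the libraries, since replicate 3 was its lowest overexpressing library and the highest for the other 6.

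*KRT7*, a type II keratin of glandular ducts, had 0.254, 0.270 and 0.301 RPKM in overexpressing replicates 1 to 3 and 0.0656, 0.0634 and 0.0528 RPKM in the control replicates. The groups did not overlap, but only 80 and 22 reads lay behind them, and the depth-scaled difference of 4.69-fold had an exact 95% counting interval of 2.89 to 7.89. Like *KRT19*, it reached the minimum of 0.1 RPKM for testing only through the overexpressing libraries.

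*KRT10*, the type I keratin of differentiating epidermis, did not follow the others. It had 12.5, 12.2 and 14.0 RPKM in overexpressing replicates 1 to 3 and 12.2, 13.2 and 13.3 RPKM in the control replicates. The groups overlapped, the means were 12.9 ± 0.999 and 12.9 ± 0.586 RPKM (SD, n = 3 each), and the depth-scaled reads had a ratio of 1.0 with an exact 95% counting interval of 0.944 to 1.06. *KRT1*, which encodes its type II partner in epidermis, had 2 reads in the overexpressing libraries together and 1 in the control libraries.

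*KRT20*, the type I keratin of intestinal and gastric surface cells, had 2, 0 and 5 reads in overexpressing replicates 1 to 3 and 3, 4 and 6 reads in the control replicates. The groups overlapped, and the ratio of 0.694 had an exact 95% counting interval of 0.234 to 1.87, so a difference was not detectable at this depth. *KRT5*, the type II keratin of basal cells, had 1, 0 and 2 reads in the overexpressing libraries and 0 in each control library. Both groups were at or under the limit that 3 counts set, and no fold is given. Neither gene passed the filter on low values, so 8 of the 10 members entered the fit over all genes, from which their log2 fold changes are given without a test.

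The order of the members per kilobase of merged exons changed between the groups. In control cells *KRT10* stood far above the rest, followed by *KRT8* and *KRT4*, and the ranges of these 3 genes did not overlap. *KRT80* and *KRT18* came next with overlapping ranges, and the ranges of *KRT20*, *KRT19* and *KRT7* overlapped from neighbour to neighbour near the limit of detection. In overexpressing cells the ranges of *KRT10* and *KRT8* overlapped at the top. *KRT18* came after them and stood apart, and the ranges of *KRT19*, *KRT4*, *KRT80* and *KRT17* overlapped from neighbour to neighbour. The order depends on the length used. Per kilobase of the main transcript, *KRT8* was 2.85 to 3.33 times *KRT10* in overexpressing cells, with no overlap, and *KRT18* at 7.75 to 14.1 overlapped *KRT10* at 12.3 to 14.2. On that scale *KRT18* was above *KRT80* in control cells, at 0.332 to 0.432 against 0.197 to 0.278.

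The sums over the types show what these shifts did to the balance. The type II members added up to 2.80, 2.69 and 2.90 RPKM in the control replicates 1 to 3 and 14.2, 13.6 and 17.4 RPKM in the overexpressing replicates. The type I members added up to 12.6, 13.6 and 13.8 RPKM and to 18.9, 18.4 and 24.6 RPKM, but *KRT10* made up 96.6% to 96.8% of the type I sum in control cells and 57.0% to 66.0% in overexpressing cells. Both sums were higher in every overexpressing library.

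The ratio of type II to type I turned on *KRT10*. With it, the ratio was 0.198 to 0.222 in the control libraries and 0.710 to 0.751 in the overexpressing libraries, an increase of 1.80 on the log2 scale. Without it, the ratio was 6.23 to 6.95 in the control libraries and 1.65 to 2.20 in the overexpressing libraries, a log2 difference of -1.70. Per kilobase of the main transcript, the ratio with *KRT10* was 0.529 to 0.600 in the control libraries and 1.48 to 1.63 in the overexpressing libraries. Which type was higher in overexpressing cells thus turned with the length used, and *KRT10* was 41.1% to 50.8% of their type I sum on that scale. Leaving *KRT10* out, the type I sum was below the type II sum in both groups, and by a smaller factor in overexpressing cells. Without *KRT10*, the type I members together were 17.9-fold higher in overexpressing cells, and the type II members 5.39-fold.

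**Figure D2:**
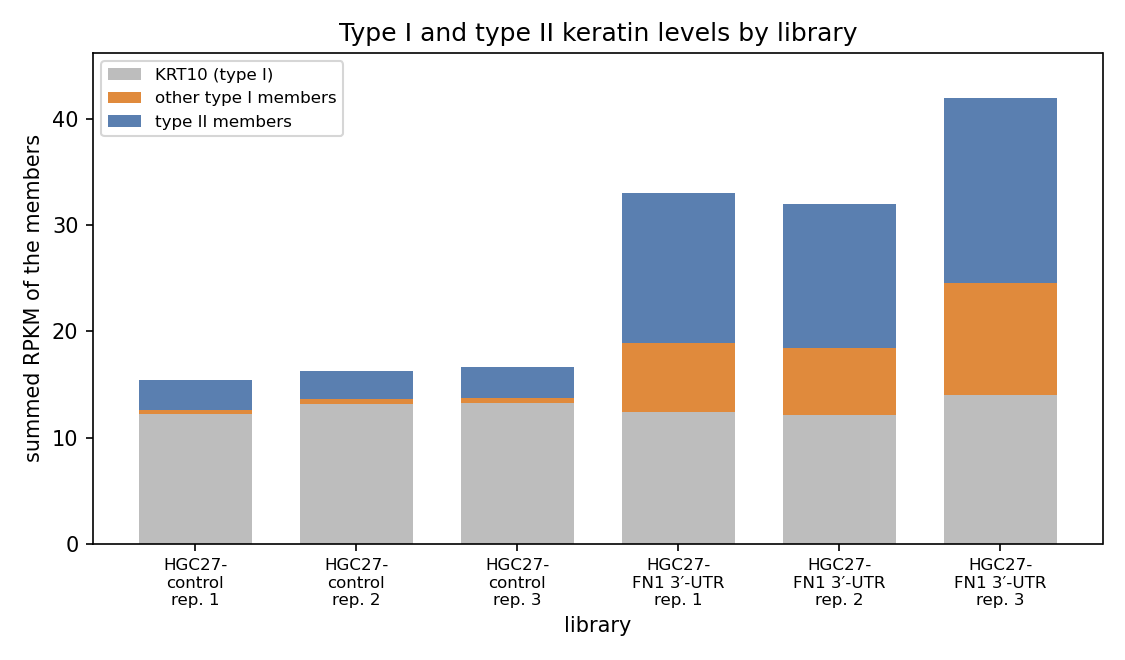
Stacked bars of the summed RPKM of the members in each library, divided into *KRT10*, the other type I members and the type II members. The *KRT10* layer is alike in all 6 libraries, and the layers above it are taller in every overexpressing library, most of all in replicate 3.

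Keratin genes have many near copies in the genome, and reads that fall where a gene and a copy are identical cannot be placed with certainty. Of the 50-base words in the main *KRT8* transcript, 36.9% also occurred on either strand in transcripts of 42 other genes, 37 of them pseudogenes. For *KRT18* the share was 47.6% in 45 other genes, 43 of them pseudogenes, and 21.5% of its words were shared with *KRT8* itself, whose exons overlap those of *KRT18* over 525 bases on the opposite strand. The shares were 17.4% for *KRT17*, 10.8% for *KRT7*, nearly all with its antisense gene *KRT7-AS*, 3.99% for *KRT5* and 1.79% for *KRT19*, and no word of *KRT4* or *KRT20* was shared. The library kit kept strand, but whether the reads were counted by strand, and how reads with several matches were counted, is not given in the sources used here. The levels of *KRT8*, *KRT18* and *KRT17* are uncertain to that extent.

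The pseudogene rows were nearly as high in control cells as in overexpressing cells, though their sums for *KRT8* and for *KRT18* were higher in every overexpressing library. The 50 *KRT8* pseudogene rows together had 12.5, 11.8 and 12.6 reads per 1000000 in overexpressing replicates 1 to 3 and 10.4, 10.4 and 11.4 in the control replicates. The 65 *KRT18* pseudogene rows had 1.90, 1.64 and 1.99 reads per 1000000 and 1.34, 1.59 and 1.30. Over summed reads the depth-scaled ratios were 1.14 and 1.31, far below the 5.78 and 28.1 of *KRT8* and *KRT18*.

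In control cells the *KRT8* pseudogene rows held 72.7% as many reads as *KRT8*, and the *KRT18* rows held 240% as many reads as *KRT18*. In overexpressing cells these shares were 14.3% and 11.2%. With the reads of its pseudogene rows added, *KRT8* differed 3.83-fold in place of 5.78-fold and *KRT18* 9.20-fold in place of 28.1-fold. The direction was the same either way, and the sizes of both differences, above all that of *KRT18*, depend on where these reads belong.

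**Figure D3:**
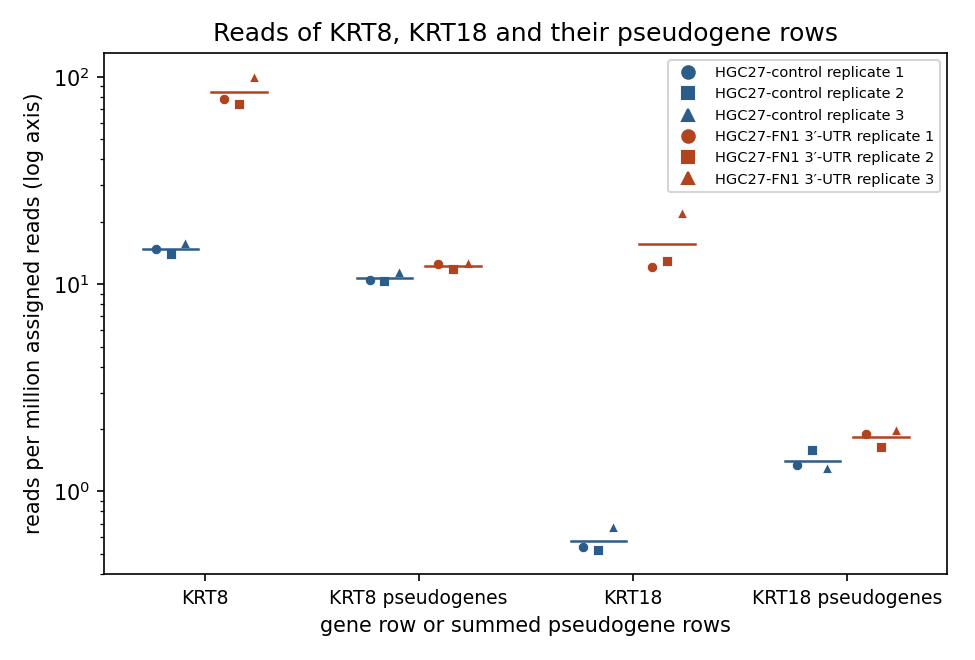
Reads per 1000000 assigned reads on a log axis for *KRT8*, *KRT18* and the sums of their pseudogene rows, with 1 point per library and lines at the group means. *KRT18* lies below its pseudogene rows in all 3 control libraries and above them in all 3 overexpressing libraries.

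The other keratin genes were close to silent in these cells. Of 44 further intact keratin genes looked for, 34 had a row, 19 of these had 0 reads in all 6 libraries, and the highest value in any library was 0.0951 RPKM. The 5 with the highest mean were *KRT14*, *KRT75*, *KRT81*, *KRT83* and *KRT71*. *KRT14*, the type I partner of *KRT5*, had 9 reads in the overexpressing libraries together and 1 in the control libraries. Over the 34 rows there were 55 reads in overexpressing cells and 24 in control cells. Nothing can be read from single genes at these counts.

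Across the 6 libraries, the genes whose log2 levels ran most like *KRT8* were *KRT18*, *S100A10*, *PCDH7*, *CD24* and *MYL9*, with Pearson's r of 0.998 to 0.999 over 14062 genes compared. These coefficients are a description, since the libraries fall into 2 groups and r over 6 points mostly follows the difference between them, and 490 genes had r above 0.95. The sizes of the changes were unlike. *S100A10*, the annexin A2 partner, had 44.3, 44.3 and 47.0 RPKM in overexpressing cells and 29.4, 29.8 and 30.3 RPKM in control cells, a log2 fold change of 0.60. *CD24*, a cell surface glycoprotein of many epithelia, had a log2 fold change of 1.64.

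Keratin filaments are tied to desmosomes and hemidesmosomes by plakins and their partners. Of 19 such linker genes, 13 were tested, and 2 were higher and 2 lower in overexpressing cells. Over all genes tested, 5.62% were higher and 7.36% lower. The median log2 fold change of the linkers was 0.13, where that of all genes tested was -0.04. The *PPL* call came from a gene that reached the minimum of 0.1 RPKM only in the overexpressing libraries and so had to differ. Its values are given as a description. *PPL*, which encodes periplakin, had 0.620, 0.671 and 0.726 RPKM in overexpressing cells and 0.0466, 0.0549 and 0.0667 RPKM in control cells, a log2 fold change of 2.31. *JUP*, which encodes plakoglobin, rose by 1.31 on the log2 scale (adjusted p = 0.00747, limma). Both groups of libraries were apart for each gene.

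The most abundant linkers differed less. *DSP*, which encodes desmoplakin, the main anchor of keratins at desmosomes, fell by 0.36 on the log2 scale, from 14.1 ± 0.513 to 10.9 ± 0.503 RPKM (SD, n = 3 each, adjusted p = 0.00758, limma). *ITGA6*, an integrin chain of hemidesmosomes, fell by 0.28 (adjusted p = 0.0226, limma), a call lost without overexpressing replicate 1 or 2 or any 1 of the control libraries (0.0554 to 0.0874). *PLEC*, which encodes plectin, had a log2 fold change of 0.13 and *DSG2*, a desmosomal cadherin, of 0.11, with adjusted p-values of 0.114 and 0.131 from limma. With median-ratio scaling these last 2 genes also passed, and 4 linker genes were then higher.

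Calls among the other intermediate filament genes stand beside shares of 5.62% higher and 7.36% lower over all genes tested. Of 18 genes, 13 were tested, 0 were higher and 2 were lower by limma at an adjusted p under 0.05, against 2 higher and 4 lower at an unadjusted p under 0.05 and 2 higher and 3 lower with voom on the recovered reads. *VIM*, which encodes vimentin, the intermediate filament of mesenchymal cells, had 315, 289 and 308 RPKM in overexpressing cells and 286, 299 and 324 RPKM in control cells. The groups overlapped, and *VIM* alone was above the sum of all keratin members in every library. *NEFL*, a neurofilament subunit, fell by 0.69 on the log2 scale (adjusted p = 0.00132, limma), from 24.9 ± 0.656 to 15.5 ± 0.955 RPKM (SD, n = 3 each). *IFFO2* fell by 0.42 (adjusted p = 0.0176, limma), a call lost without overexpressing replicate 1 or any 1 of the control libraries (0.0532 to 0.069). The nuclear lamin genes *LMNB1* and *LMNB2* had log2 fold changes of -0.07 and 0.07, with adjusted p-values of 0.105 and 0.279 from limma.

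Of 21 genes whose products bind or modify keratins, all were tested. Of them 4 were higher and 3 lower, beside 5.62% and 7.36% of all genes tested. Their median log2 fold change was -0.06. *SFN*, which encodes the 14-3-3 sigma protein that binds KRT17 and KRT18, had 3.01, 3.26 and 4.59 RPKM in overexpressing cells and 1.05, 1.23 and 1.29 RPKM in control cells, a log2 fold change of 1.51 (adjusted p = 0.00459, limma). Replicate 3 was highest here too. *FAM83H*, which organizes keratin filaments through casein kinase 1, had 51 reads in overexpressing and 5 in control libraries. It reached the minimum of 0.1 RPKM only in the overexpressing libraries, so its log2 fold change of 1.06 is a description. *PNN*, which encodes pinin, rose by 0.35 (adjusted p = 0.0183, limma), a call lost without overexpressing replicate 2 or 3 or control replicate 2 (0.051 to 0.0706). *HSPA8*, a constitutive heat shock protein, fell by 0.35 (adjusted p = 0.00265, limma). *HSPB1*, a small heat shock protein that associates with keratin filaments, had a log2 fold change of -0.09 (adjusted p = 0.438, limma).

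Markers of epithelia other than keratins were examined because keratins are themselves epithelial markers. The paper names HGC27 as a gastric cancer line, and these marker lists do not test that identity. Of 20 epithelial genes, 17 were tested, and 8 were higher and 1 lower in overexpressing cells, beside 5.62% and 7.36% of all genes tested. The median log2 fold change of the list was 0.81. *EPCAM*, an epithelial adhesion molecule, had 1.43, 1.41 and 2.60 RPKM in overexpressing cells and 0.160, 0.206 and 0.257 RPKM in control cells, a log2 fold change of 2.59 (adjusted p = 0.00348, limma). As for most of the keratins, the groups did not overlap and replicate 3 was the highest. Of the 17 genes tested, 7 reached the minimum of 0.1 RPKM only in the overexpressing libraries, 5 of the 8 called higher among them, so neither the count nor the median is read as support. *SPINT1*, an inhibitor of epithelial surface proteases, is one of these, with a log2 fold change of 2.08 given as a description. *CLDN7* and *OVOL2* were among the most abundant of the list and had log2 fold changes of 0.10 and -0.14 (adjusted p = 0.592 and 0.394, limma). The list summed to 12.6 to 14.9 RPKM in overexpressing libraries and 8.98 to 10.1 RPKM in control libraries.

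Of 18 gastric epithelium markers, 13 had a row and 6 were tested, of which 4 were higher and 0 were lower. The counts were also 4 and 0 at an unadjusted limma p under 0.05 and with voom. Over all genes tested, 5.62% were higher and 7.36% lower by limma at an adjusted p under 0.05. *CTSE*, *LYZ* and *PLA2G2A*, which encode cathepsin E, lysozyme and a secreted phospholipase of the gut mucosa, had log2 fold changes of 3.90, 3.88 and 3.86. Of these, *LYZ* was above 0.1 RPKM in every library (adjusted p = 0.000409, limma). *CTSE* had 0.0503, 0.134 and 0.0404 RPKM in control cells and *PLA2G2A* 0.0797, 0.0963 and 0.192 RPKM. Both thus reached the minimum for testing only with the help of the overexpressing libraries. Their calls are given as a description, and the count of 4 is not read as support. *MUC1*, a membrane mucin, rose by 0.60 (adjusted p = 0.0368, limma), a call lost without either overexpressing replicate 2 or 3 and without any 1 of the control libraries (0.0805 to 0.113). The defining genes of gastric mucosa were at or near 0, with mean levels of 0.000654 and 0.00148 RPKM for *MUC5AC* and 0.0207 and 0 RPKM for *TFF1* in overexpressing and control cells. The list summed to 11.9 to 14.2 RPKM in overexpressing libraries and 2.5 to 2.61 RPKM in control libraries.

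Of 12 intestinal epithelium markers, 5 were tested, and 3 were higher and 0 lower, as also at an unadjusted limma p under 0.05 and with voom. Over all genes tested, 5.62% were higher and 7.36% lower by limma at an adjusted p under 0.05. *TSPAN8*, *CDH17* and *MUC13*, genes of the intestinal cell surface, had log2 fold changes of 1.48, 1.28 and 0.99. *TSPAN8* and *CDH17* reached the minimum of 0.1 RPKM only in the overexpressing libraries, so 2 of the 3 calls are a description. *MUC13* rose with an adjusted p of 0.0232 from limma, a call lost without overexpressing replicate 2 or 3 or control replicate 1 or 2 (0.0642 to 0.0825). *CDX2* and *VIL1* had log2 fold changes of -0.12 and 0.19 (adjusted p = 0.522 and 0.54, limma). Of 12 markers of stratified squamous epithelium, 4 were at 0 reads in every library, 3 were tested and 1 was higher. *TGM1*, a transglutaminase that crosslinks the cell envelope, rose by 1.62 (adjusted p = 0.0013, limma), from 1.53 ± 0.220 to 4.88 ± 0.519 RPKM (SD, n = 3 each). The others tested, *CNFN* and *SBSN*, had log2 fold changes of -0.11 and -0.67 (adjusted p = 0.723 and 0.175, limma). The median of the squamous list was -0.11.

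Some mesenchymal and fibroblast markers were higher in overexpressing cells. Of 14 genes, 12 were tested, and by limma 6 were higher, 0 lower and 6 not called at an adjusted p under 0.05. Over all genes tested, 5.62% were higher and 7.36% lower. The median log2 fold change of the list was 0.37, and the 6 genes not called ran from -0.21 to 0.29. At an unadjusted p under 0.05 from limma and with voom, 7 were higher and 1 was lower. *COL1A2*, *LUM* and *SNAI2* rose by 1.32, 0.98 and 0.87 (adjusted p = 0.0013, 0.00711 and 0.00718, limma). *COL3A1*, *TWIST1* and *COL1A1*, the most abundant of the list, rose by 0.44, 0.46 and 0.55 (adjusted p = 0.00342, 0.016 and 0.0115, limma). The call of *TWIST1* was lost without overexpressing replicate 1 or 2 or control replicate 2 (0.0553 to 0.0646), and that of *COL1A1* without control replicate 2 (0.0518). The list summed to 270 to 273 RPKM in overexpressing libraries and 187 to 217 RPKM in control libraries. Of 8 blood and endothelial markers, 3 were tested, and the list summed to 2.90 to 3.18 and 3.11 to 3.62 RPKM. By limma 0 were called, with 0 at an unadjusted p under 0.05 and 0 with voom, and *PECAM1* was at 0 reads in every library. These levels moved beside those of the keratins, and their part in the keratin differences was not tested.

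**Figure D4:**
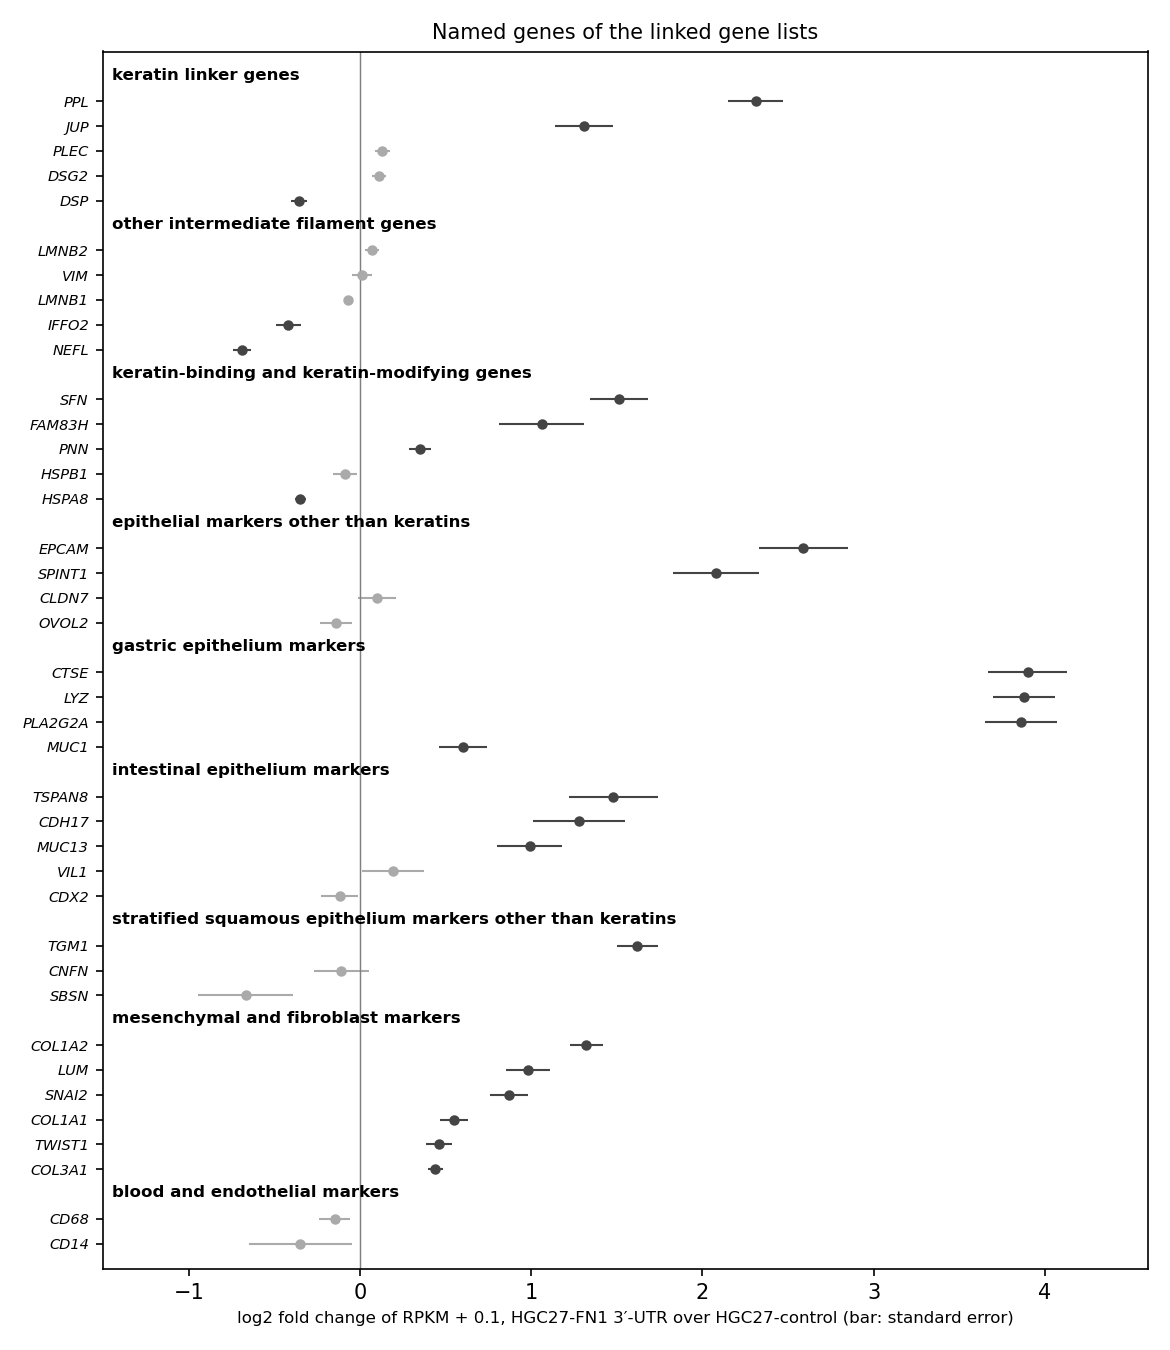
Log2 fold change of RPKM + 0.1 between overexpressing and control cells for the named genes of each list, with bars for the standard error. Dark points mark an adjusted p under 0.05 from limma. Those of *PPL*, *FAM83H*, *SPINT1*, *TSPAN8* and *CDH17* are for genes that entered the fit only through the overexpressing libraries. *CTSE* and *PLA2G2A* also needed those libraries to enter the fit. *CTSE*, *LYZ* and *PLA2G2A* lie farthest to the right, while *VIM*, *LMNB1* and *LMNB2* lie close to 0.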

How the data were processed

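RNA-seq was analysed for 3 libraries of overexpressing (HGC27-FN1 3′-UTR) cells and 3 of control cells, with groups and replicate numbers from the sample labels. The authors deposited RPKM per gene and library. The submitters' processing notes name Trimmomatic 0.36, STAR 2.5.3a, featureCounts of Subread 1.5.1 and GRCh38. Read length, the treatment of multiply matched reads and the strand setting are not given in the sources used here. Every RPKM value above 0 was a whole multiple of 1 read within 0.05 reads, which gave the reads behind each value.

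Genes that reached 0.1 RPKM in 3 libraries were fitted with limma 3.58.1 (R 4.3.3) on log2(RPKM + 0.1), with group as the only term and a variance trend, two-sided, with Benjamini-Hochberg adjustment over 23299 genes. The lists of related genes, the rule for named genes and the members themselves were chosen with earlier results of these data known. Named were the 10 members, the 5 other keratins with the highest mean RPKM, the 5 genes most like *KRT8* by Pearson's r (among those with a mean RPKM of at least 1 and 10 or more reads in every library), *FN1*, and from each list the 3 called genes with the largest change and the 3 most abundant genes. *KRT1*, *ITGA6*, *MUC5AC*, *TFF1* and *PECAM1* were added after their values were seen. Some genes that this rule would name are not reported here. Ratios of summed reads have exact Clopper-Pearson intervals. Shared words and coding stretches came from the transcripts of GENCODE release 29, in which 9 of the 10 members have the deposited start and end (all but *KRT17*). Tested on simulated reads of this comparison, the fit called 195 of 200 genes changed 4-fold and 15 unchanged genes among 23326 tested. The changed genes were drawn from those with a mean RPKM of at least 1. All genes were given the same spread beyond counting error. These counts therefore do not cover genes with lower RPKM or a wider spread between libraries. Alternatives were other pseudocounts and filters, median-ratio scaling, voom, a replicate block and leaving out each library. Tables and figures were made with Python 3.11.15, pandas 2.3.3, numpy 2.4.6, scipy 1.17.1 and matplotlib 3.10.9.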

Additional observations from a re-analysis of the deposited data

How the results depend on the processing

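The 7 risen keratins kept the sign of their log2 fold change under each of up to 13 alternatives that gave a value, while the sizes moved with the pseudocount. A pseudocount of 1 gave 2.06 for *KRT8*, 2.28 for *KRT18* and 0.27 for *KRT7*, and voom gave 2.16 for *KRT7*. The summed level of the 10 members had a log2 ratio of 1.15, with 1.01 to 1.22 when 1 library was left out. After the data were seen, 2 settings were added for the sums. Without *KRT10* the ratio was 2.82, and per kilobase of the main transcript it was 1.72. The log2 difference of type II over type I was 1.80, with 1.76 to 1.84 when 1 library was left out and 1.46 per kilobase of the main transcript, and it reversed to -1.70 without *KRT10*. Adding pseudogene reads, also chosen after the data were seen, took the log2 read ratio of *KRT8* from 2.53 to 1.94 and that of *KRT18* from 4.81 to 3.20.

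Over all genes, voom on the recovered reads called 2043 higher and 3065 lower, and leaving out 1 library gave 501 to 927 higher and 470 to 1015 lower, where fewer libraries were fitted. Linker genes called higher numbered 2, and 4 with no filter, 0 at a mean RPKM of at least 1, 4 with median-ratio scaling and 6 with voom. Those called lower numbered 2. With 1 library left out, both counts ran from 1 to 2. Other intermediate filament genes called higher numbered 2 with voom and 0 to 1 with 1 library left out, and those called lower 1 to 2. Keratin-binding genes called lower numbered 6 at a mean RPKM of at least 1 and 6 with voom, and with 1 library left out 2 to 3 were higher and 1 to 4 lower. Epithelial markers called higher fell to 1 at a mean RPKM of at least 1, with 0 lower, and to 3 to 6 with 1 library left out, with 0 to 1 lower. Intestinal markers called higher numbered 0 at a mean RPKM of at least 1 and 0 to 3 with 1 library left out. Gastric markers called higher numbered 3 to 4 and mesenchymal markers 4 to 6 with 1 library left out, and voom called 1 mesenchymal marker lower. Without 1 overexpressing library, genes that reached the minimum only in that group, such as *PPL*, *KRT19* and *KRT7*, were no longer tested. The cause of the other changes was not tested. The sign of *VIM* (log2 fold change 0.01) was not stable, at -0.00 with voom and -0.04 to 0.06 with 1 library left out. With 1 library left out, *CNFN* ran from -0.20 to 0.08.

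The labels do not say whether replicates with the same number were handled together. Their deviations from the group means correlated by 0.00244, 0.0211 and 0.0103 over 23299 genes. Counting error enters these deviations, so the correlations do not settle whether the replicates were paired. When that number entered the fit as a replicate block, 564 genes were higher and 598 lower. In the same blocked fit 1 linker gene and 1 other intermediate filament gene were lower, 2 keratin-binding genes were higher, 0 epithelial markers were lower and 0 intestinal markers were higher. Depth limits *KRT20*, *KRT5*, the control values of *KRT18*, *KRT19*, *KRT17* and *KRT7* and all other keratins, which rest on few reads.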
